A study of Mus musculus with 8 samples.

Results

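The SLC25 family comprises the nucleus-encoded carriers that move metabolites across the inner mitochondrial membrane, and its transcripts were examined in left ventricles of mice with and without a working Nppb gene. Members were taken by name, as every gene whose symbol is Slc25a followed by a digit, with pseudogenes left out. The rule gave 47 genes among the 41128 in the deposited table, all annotated as protein coding. A mean of at least 10 normalized counts over the 8 libraries was reached by 41 of the 47, and these 41 were among the 16590 genes tested. The heart burns mostly fatty acids and returns ADP to its mitochondria at a high rate, so it depends on carriers that exchange ATP for ADP, bring in phosphate, pass acylcarnitines and run the malate-aspartate shuttle. Carriers are built in the cytosol, cross the outer membrane through the TOM channel and are put into the inner membrane by the TIM22 complex. Most exchange one substrate for another, and the substrate defines the groups used below.

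The mice were 8 to 12 weeks old and of the FVB strain. The 4 Nppb knockout mice were homozygous for a deletion made by genome editing in exon 2 of Nppb, the gene of the B-type natriuretic peptide precursor. The 4 controls were wild-type littermates. The protocols common to the study also list Myh6-MerCreMer, nTnG and Sun1/sfGFP reporter mice on the FVB/N background, but the genotype labels of these 8 samples name none of these alleles. Nppb RNA stood at 2713, 1839.6, 2761 and 4619 normalized counts in wild-type replicates 1 to 4 and at 4.13, 1.54, 4.09 and 2.25 in knockout replicates 1 to 4, a log2 fold change of −9.53 (standard error 0.33, limma adjusted p = 4.63e-05), so all 8 libraries matched their labels. Each library held 20284865 to 34742840 reads in genes. The values are the authors' normalized counts, reads per gene divided by a size factor per library. A mean is given ± SD over the 4 libraries of a group (n = 4), a fold change is knockout over wild type on the scale of log2(normalized count + 1), and its test is limma with Benjamini-Hochberg adjustment over all 16590 genes at a threshold of 0.05. What a replicate number refers to is not stated. A p-value sets the group difference against the spread within groups of these 8 samples, which limma estimates with help from all genes tested. In bulk tissue, fewer cells of a type and less RNA per cell cannot be told apart.

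No SLC25 carrier passed the test over all genes. The number of members with a limma adjusted p under 0.05 was 0 of 41, against 0.0121% of all genes tested (2 genes), and the smallest adjusted p of a member was 0.319. edgeR on the recovered reads gave the same 0 of 41, again against 0.0121% of all genes. At an unadjusted limma p under 0.05, 4 of 41 members (9.76%) were lower in the knockout, against 3.29% of all genes, and 1 of 41 (2.44%) was higher, against 2.98%. At an unadjusted p under 0.05 in either direction, edgeR gave 5 of 41, against 6.31% of all genes, and DESeq2 gave 5 of 41, against 4.57%. Of the 23 members that had an adjusted p with DESeq2, 1 was under 0.05, against 0.291% of the 7906 genes that had one. The member was Slc25a34, which was also the 1 of 14 members past 0.05 in the authors' deposited table, where 0.37% of the 5939 genes with an adjusted p passed.

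Most estimates lay near 0, among the members as among all genes. The median log2 fold change of the 41 members was −0.039, with a range of −0.42 to 0.32, beside a median of 0.0023 over all genes tested. Estimates below 0 were found for 25 of 41 members (61.0%), against 49.1% of all genes, and 32 of 41 lay within 0.2 of 0, against 83.2% of all genes. The split was 25 of 41 under TMM factors and under quantile normalization too, and 27 of 41 with edgeR or DESeq2. The 95% confidence interval of a member, not adjusted for the number of genes tested, reached a median of 0.19 to either side of its estimate. Differences smaller than that were not detectable for many carriers, and larger ones could also miss the adjusted threshold. Slc25a33, at −0.37, had a limma adjusted p of 0.664. Within groups the members were about as variable as other genes, with a median SD of 0.13 on the log2 scale beside 0.14.

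**Figure D1:**
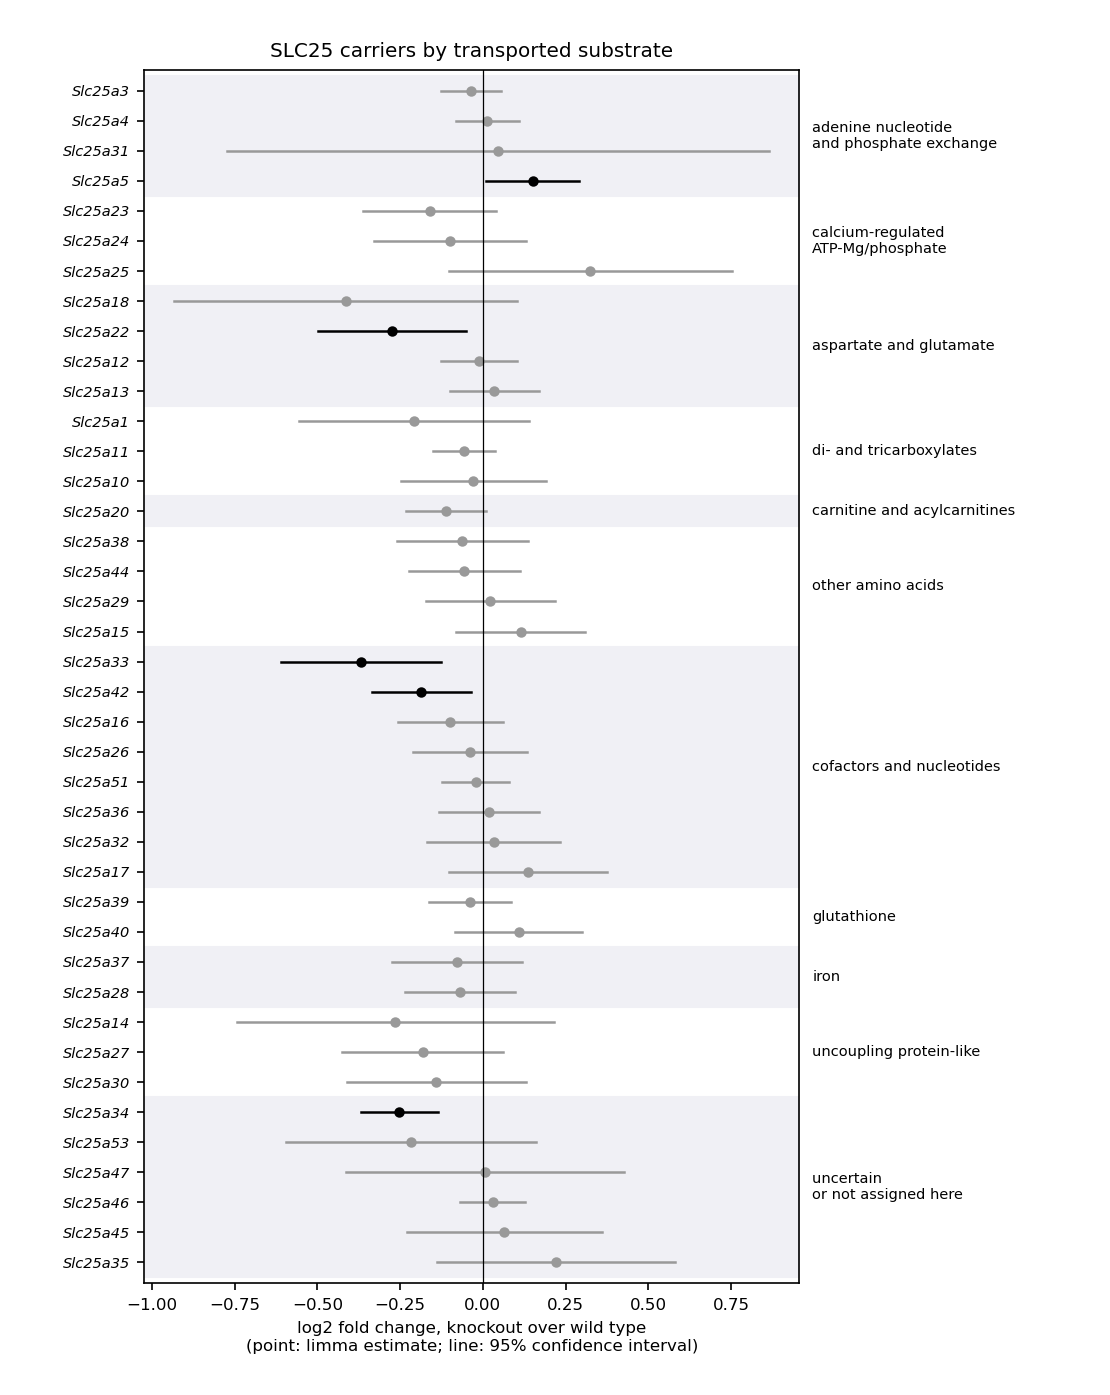
The log2 fold change (knockout over wild type, x axis) of 40 carriers with a mean of at least 10, grouped by transported substrate, with points for limma estimates and lines for 95% confidence intervals. The 5 carriers in black had an unadjusted p under 0.05, and the intervals of the other 35 cross 0, the widest being those of Slc25a31 and Slc25a18.

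Slc25a34, a carrier of the inner membrane whose substrate is not established, was the member whose groups did not overlap. Its gene, ENSMUSG00000040740, lies on the minus strand of chromosome 4 at chr4:141618824-141623821 (mm10), 6.37 Mb from Nppb. Wild-type replicates 1 to 4 had 2533, 2717, 3069.7 and 2893 normalized counts, and knockout replicates 1 to 4 had 2335, 2381, 2433 and 2244. All 4 knockout libraries were below all 4 wild-type libraries. Such a separation with the knockout lower was seen for 1 of 41 members, against 1.74% of all genes, and with the knockout higher for 0 of 41, against 2.03%. The means were 2803 ± 231 in wild type and 2348 ± 80.4 in the knockout, a difference of −16.2%. The log2 fold change was −0.25 (standard error 0.055, 95% confidence interval −0.37 to −0.14), and the limma adjusted p was 0.319. The adjusted p was 0.261 with edgeR and 0.0318 with DESeq2, and the authors' deposited table gives 16.1% lower in the knockout at an adjusted p of 0.00909. Its estimate lay between −0.30 and −0.21 over all alternatives.

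**Figure D2:**
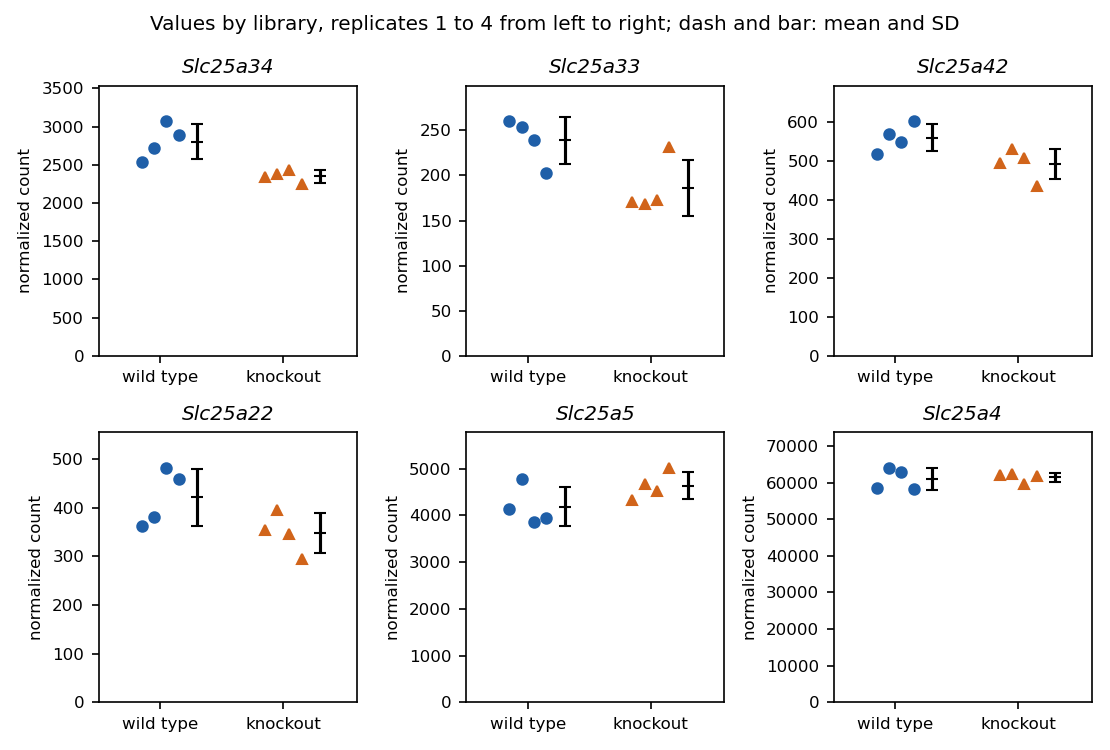
Normalized counts (y axes, starting at 0) of 6 carriers in each library, with wild-type replicates 1 to 4 as circles and knockout replicates 1 to 4 as triangles, and the mean and SD of each group beside them. The groups of Slc25a34 are apart, at 2533 to 3069.7 against 2244 to 2433, while those of the other 5 carriers overlap.

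The windows around the start sites of Slc25a34, of Slc25a4 (the highest carrier) and of Slc25a5 (the carrier with the smallest p among those higher by estimate) are shown because the values turn on these genes. They are RefSeq promoter windows on GRCm38.p6, 250 bases before to 50 bases after the start site, at chr4:141623785-141624084 (minus strand), chr8:46211013-46211312 (minus strand) and chrX:36795347-36795646 (plus strand). Capitals mark matches, on either strand, of the ERR half-site AAGGTCA, the GABP site CCGGAAG, the CCAAT box, the TATA box TATAAA and the GC box GGGCGG, none of which is contained in another.
Slc25a34: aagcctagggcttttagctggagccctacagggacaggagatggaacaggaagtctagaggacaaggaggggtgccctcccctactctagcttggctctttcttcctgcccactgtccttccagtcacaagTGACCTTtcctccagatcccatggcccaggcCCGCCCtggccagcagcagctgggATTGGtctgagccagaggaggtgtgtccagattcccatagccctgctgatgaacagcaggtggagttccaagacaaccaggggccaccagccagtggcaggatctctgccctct
Slc25a4: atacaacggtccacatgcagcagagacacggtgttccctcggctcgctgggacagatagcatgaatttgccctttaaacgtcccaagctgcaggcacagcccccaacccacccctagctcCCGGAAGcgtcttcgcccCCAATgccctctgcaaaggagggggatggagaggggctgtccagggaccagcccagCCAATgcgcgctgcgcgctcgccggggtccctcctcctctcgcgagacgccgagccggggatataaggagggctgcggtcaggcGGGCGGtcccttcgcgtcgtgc
Slc25a5: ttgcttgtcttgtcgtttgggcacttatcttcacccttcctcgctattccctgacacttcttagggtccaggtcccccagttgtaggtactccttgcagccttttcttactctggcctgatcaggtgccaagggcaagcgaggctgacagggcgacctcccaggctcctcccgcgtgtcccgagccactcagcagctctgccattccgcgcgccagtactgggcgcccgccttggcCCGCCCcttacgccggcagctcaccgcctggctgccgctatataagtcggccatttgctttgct
In the Slc25a34 window the ERR half-site begins 119 bases, the GC box 88 bases and the CCAAT box 64 bases before the start site, all read on the other strand. The Slc25a4 window holds a GABP site 130 bases before the start site, CCAAT boxes at 112 and 56 bases before it and a GC box 28 bases after it. The Slc25a5 window holds a GC box that begins 14 bases before the start site.

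RefSeq windows were found for 32 of the 41 members, which have 41 windows between them, with a median GC content of 59.7% beside 52.7% over all 32851 windows. The GC box was present in 36 member windows (87.8%), against 35.7% of all windows, and the CCAAT box in 21 (51.2%), against 37.4%. The E-box CACGTG was present in 8 (19.5%), against 7.15%, and the GABP site in 6 (14.6%), against 8.86%. The NRF1 core, a pair of GCGC separated by any 2 bases, was present in 3 (7.32%), against 6.23%. The TATA box TATAAA was present in 1 (2.44%), against 13.6%. The ERR half-site was also present in 1 (2.44%), that of Slc25a34, against 4.72%. Each motif was searched on both strands, and a match is a run of letters, not a shown binding site. The set of all windows was not limited by expression or gene type, unlike that of the members. Whether other expressed genes of like GC content have similar shares was not tested.

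A few carriers made up most of the family's RNA. Levels between genes are compared per kb of exon, with all annotated exons of a gene merged. The order and the shares depend on this length, and which isoforms are used was not examined. The highest was Slc25a4, the ADP/ATP carrier of heart and muscle, at 25991 normalized counts per kb, rank 53 among the 16462 genes ranked. Next came Slc25a11, the oxoglutarate/malate carrier, at 3274, Slc25a3, the phosphate carrier, at 2881, and Slc25a5, the more widely expressed ADP/ATP carrier, at 2680.3. These 4 carried 86.9% of the family's total per kb. In normalized counts Slc25a3 was above Slc25a11, at 15990 against 6942, over exon lengths of 5550 and 2120 bases. A further 11 members lay between 100 and 1000 normalized counts per kb, 24 between 10 and 100, and 2 below 10. From the fifth to the tenth the order was Slc25a34 at 965, Slc25a13 at 809, Slc25a39 at 527, Slc25a12 at 472, Slc25a20 at 376 and Slc25a46 at 243. Slc25a4 stood clear of all others in every library. Among neighbours in this order, the ranges over the 8 libraries crossed for Slc25a3 with Slc25a5, Slc25a34 with Slc25a13 and Slc25a39 with Slc25a12, and the other neighbours were apart.

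**Figure D3:**
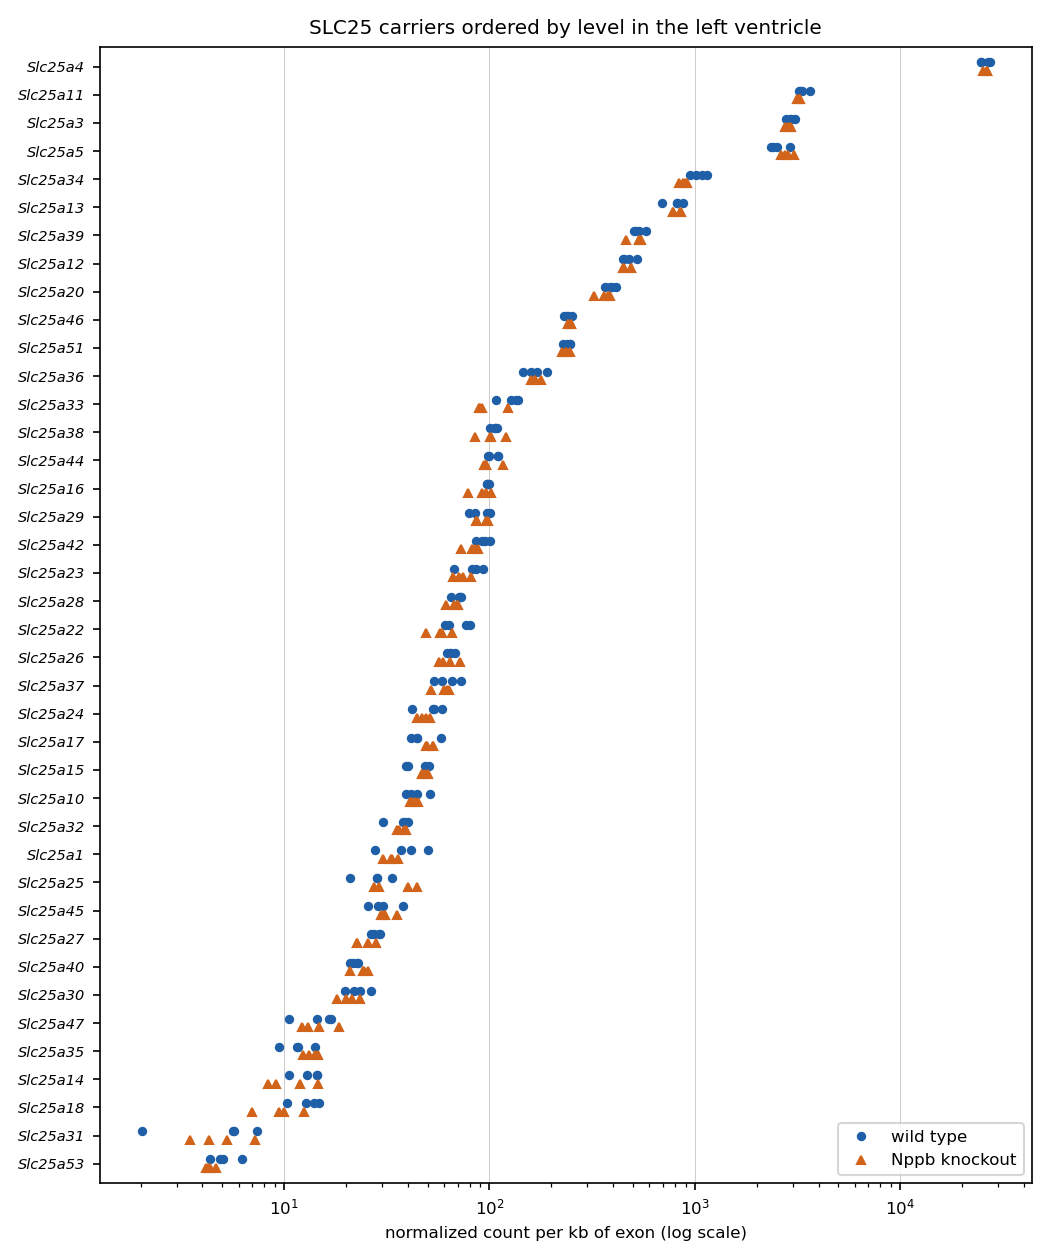
Normalized counts per kb of exon (x axis, log scale) of 40 carriers in each of the 8 libraries, wild type as circles and knockout as triangles, ordered by mean. Slc25a4 at 25991 lies to the right of all others, and the points of both genotypes cover one another for nearly every carrier.

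The part of the RNA that the family took differed between genotypes by less than the SD of the wild-type libraries. All members together made up 0.422 ± 0.0147% of the normalized counts in wild type and 0.426 ± 0.00610% in the knockout. Slc25a4 held 54.6 ± 0.858% of the family's normalized counts in wild type and 55.4 ± 0.414% in the knockout. Per kb it held 64.6 ± 0.533% of the family in wild type and 65.1 ± 0.526% in the knockout. The share of the 4 highest carriers per kb was 86.5 ± 0.241% in wild type and 87.2 ± 0.212% in the knockout. The knockout libraries were at 86.9% to 87.3% and the wild-type libraries at 86.2% to 86.8%. That split is a description, since the 4 were chosen by their level in the same libraries.

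Adenine nucleotide and phosphate carriers supply the ATP synthase and export what it makes. None of the 4 passed the test, and their median log2 fold change was 0.030, or −0.013 with edgeR and DESeq2. Slc25a4 (ENSMUSG00000031633, chr8:46206797-46211284, minus strand) had 58416, 64039, 62962 and 58176 normalized counts in the wild-type libraries and 61970.1, 62215, 59577 and 61900.0 in the knockout libraries. The groups overlapped, with means of 60898 ± 3039 and 61416 ± 1233, and the confidence interval of its log2 fold change ran from −0.081 to 0.11 around 0.013. Slc25a3 had 16248, 15455, 16997 and 16073 in wild type and 15860.2, 15746, 15177 and 16363 in the knockout, also overlapping, with a log2 fold change of −0.036 (interval −0.13 to 0.054). Slc25a5 (ENSMUSG00000016319, chrX:36795651-36798807, plus strand) had 4148, 4786, 3864 and 3951 in wild type and 4336, 4668, 4521 and 5021 in the knockout. Wild-type replicate 2 lay among the knockout libraries, and without it the groups did not overlap. The means of Slc25a5 were 4187 ± 416 and 4636 ± 290.4, and the log2 fold change of 0.15 (standard error 0.065) had a limma adjusted p of 0.769. Slc25a31, an ADP/ATP carrier known from germ cells, had the lowest mean count of those that passed the filter, with 12.2, 15.7, 12.0 and 4.33 in wild type and 7.43, 15.4, 9.20 and 11.3 in the knockout, and its log2 fold change of 0.046 with limma was −0.035 with edgeR and −0.034 with DESeq2.

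Slc25a5 has a processed pseudogene, Slc25a5-ps on chromosome 14, which itself held 234 to 343 normalized counts. Their longest common run was 97 bases, shorter than a read of 125 bases. No whole read of 125 bases therefore fits both annotated transcripts without a mismatch. The treatment of reads with several alignments in the authors' counting was not stated. Whether reads of this copy entered the count of Slc25a5 was not tested. Among the members themselves, 0 of 1081 pairs had a stretch of 125 bases in common in their annotated transcripts. The coding sequences of Slc25a4 and Slc25a5 were 77.4% identical over 894 aligned bases, and those of Slc25a4 and Slc25a31 were 66.9% identical.

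Calcium-regulated ATP-Mg/phosphate carriers adjust the adenine nucleotide pool of the matrix, and none of the 3 members tested passed. Slc25a23 had 456, 437, 355 and 493 normalized counts in wild type and 376, 430.1, 351 and 393 in the knockout (log2 fold change −0.16, standard error 0.094). Slc25a24 had 201, 182, 144 and 185 in wild type and 153, 177, 161 and 169 in the knockout (log2 fold change −0.10, standard error 0.11). Both had overlapping groups. Slc25a25 had the highest estimate of the family, with 223, 164, 265 and 223 in wild type and 347, 227, 215 and 314 in the knockout. Knockout replicates 1 and 4 were above all wild-type libraries, and the other two knockout libraries were within the wild-type range. The means of Slc25a25 were 219 ± 41.5 and 276 ± 65.2, a log2 fold change of 0.32 with a standard error of 0.19 and a limma adjusted p of 0.814. An exon of Slc25a25 overlaps Naif1 on the other strand, which had 76.5 to 133 normalized counts. Slc25a41, also listed with these ATP-Mg/phosphate carriers, has a shorter coding sequence, at 936 bases against 1401 for Slc25a23. It stayed below the filter at no more than 2.17 normalized counts in any library.

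Aspartate and glutamate carriers include both aspartate/glutamate exchangers of the malate-aspartate shuttle, Slc25a12 (aralar) and Slc25a13 (citrin), and the glutamate/proton carriers Slc25a22 and Slc25a18. None of the 4 passed the test, and 3 of 4 were below 0. Slc25a12 had 3304, 3506, 3841 and 3266 in wild type and 3573, 3334, 3290.4 and 3597 in the knockout, with a log2 fold change of −0.011 (interval −0.13 to 0.10). Slc25a13 had 3114, 3316, 3098 and 2631 in wild type and 3253, 2987, 2968 and 3217 in the knockout, with a log2 fold change of 0.035 (interval −0.10 to 0.17). Both exchangers overlapped fully between genotypes. Slc25a22 (ENSMUSG00000019082, chr7:141429744-141437892, minus strand) had 363, 379.7, 482 and 458 in wild type and 353, 395, 345 and 295 in the knockout. Wild-type replicates 3 and 4 were above every knockout library, and replicates 1 and 2 were among them. The means of Slc25a22 were 421 ± 58.1 and 347 ± 40.8, a log2 fold change of −0.27 (standard error 0.10) with a limma adjusted p of 0.753. Slc25a18 had 19.8, 24.5, 26.6 and 28.2 in wild type and 19.0, 23.9, 13.3 and 18.0 in the knockout, the lowest estimate of the family at −0.42 (standard error 0.24). Its exons overlap Atp6v1e1 on the other strand, a far more counted gene at 1287 to 1335, and whether the counting used strand was not stated.

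Carriers of di- and tricarboxylates were below 0 in 3 of 3 members tested, and none passed. Slc25a11, which trades malate for oxoglutarate in the malate-aspartate shuttle, had 6851, 7012, 7668 and 6799 normalized counts in wild type and 6692, 6863, 6809.8 and 6838 in the knockout. The knockout libraries were tightly grouped at the lower end of the wild-type range, replicate 1 just below it, with a log2 fold change of −0.057 (interval −0.15 to 0.037). An exon of Slc25a11 overlaps Rnf167 on the other strand, at 555 to 669 normalized counts. The citrate carrier Slc25a1 had 84.9 ± 20.4 in wild type and 71.9 ± 5.18 in the knockout, and the dicarboxylate carrier Slc25a10 had 152 ± 18.2 and 148 ± 5.80. The oxodicarboxylate carrier Slc25a21 stayed under the filter, with at most 2.17 in any library.

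Slc25a20, the carnitine/acylcarnitine carrier that brings long-chain fatty acids in for oxidation, had 1771, 1998, 1908 and 1879 normalized counts in wild type and 1568, 1749, 1861 and 1828 in the knockout. Knockout replicates 1 and 2 were below all wild-type libraries, and knockout replicates 3 and 4 lay within the wild-type range. The means were 1889 ± 93.4 and 1752 ± 131, a log2 fold change of −0.11 (standard error 0.057, interval −0.23 to 0.0098) with a limma adjusted p of 0.797.

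Cofactor and nucleotide carriers had 9 members, all tested, and none passed the test over all genes, although 2 of the 5 members with an unadjusted p under 0.05 belonged to it. Slc25a33 (ENSMUSG00000028982, chr4:149744036-149774277, minus strand), a pyrimidine nucleotide carrier whose gene lies 1.76 Mb from Nppb, had 260.1, 253, 239.5 and 202 normalized counts in wild type and 170.0, 168, 173 and 232 in the knockout. Knockout replicates 1 to 3 were below all wild-type libraries, and knockout replicate 4 was above wild-type replicate 4. The means of Slc25a33 were 239 ± 25.7 and 186 ± 30.9, a log2 fold change of −0.37 (standard error 0.11, interval −0.61 to −0.13) with a limma adjusted p of 0.664. Its paralog Slc25a36, another pyrimidine nucleotide carrier, had 1532, 1389, 1635 and 1820.3 in wild type and 1706, 1605, 1601 and 1523 in the knockout, fully overlapping, with a log2 fold change of 0.019. Slc25a42 (ENSMUSG00000002346, chr8:70184340-70212305, minus strand), the carrier of coenzyme A, had 518, 569, 549.5 and 602 in wild type and 495, 529.7, 508 and 437 in the knockout. Knockout replicate 2 alone reached into the wild-type range. The means of Slc25a42 were 559.6 ± 35.3 and 492 ± 39.6, a log2 fold change of −0.19 (standard error 0.070) with a limma adjusted p of 0.753.

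The groups of the other cofactor carriers overlapped. Slc25a17, a carrier of peroxisomes rather than of mitochondria, had 127, 119, 126 and 165 in wild type and 152, 142, 151 and 139.7 in the knockout, where wild-type replicate 4 was above all knockout libraries and the other three were below them. The NAD carrier Slc25a51, also on chromosome 4 but 103 Mb from Nppb, had 1323 ± 45.4 in wild type and 1303 ± 46.5 in the knockout. The S-adenosylmethionine carrier Slc25a26 had 311 ± 11.0 and 304 ± 31.8. The folate carrier Slc25a32 had 224 ± 26.3 and 228 ± 10.7, and Slc25a16 had 470.2 ± 5.32 and 441 ± 47.8. For Slc25a16 the wild-type libraries stayed within 466 to 476 while the knockout libraries spread over 376 to 489.

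Carriers of glutathione and iron serve the redox balance and the iron-sulphur and haem synthesis of the matrix, and none of these 4 passed. The glutathione carrier Slc25a39 had 1394, 1588, 1430.4 and 1477 in wild type and 1278, 1502, 1479 and 1477 in the knockout, where knockout replicate 1 was the lowest of the 8 libraries (log2 fold change −0.040). Its paralog Slc25a40 had 191, 182, 190.3 and 175 in wild type and 175, 206, 203 and 215 in the knockout (log2 fold change 0.11, standard error 0.090). In Slc25a40, 3 of 4 knockout libraries were above all wild-type libraries. The iron carrier Slc25a37 (mitoferrin-1) had 325, 355, 394 and 436 in wild type and 311, 381, 359.7 and 375 in the knockout (log2 fold change −0.078). Slc25a28 (mitoferrin-2) had 268, 274, 269 and 244 in wild type and 259, 252, 264 and 229.8 in the knockout (log2 fold change −0.070). Both mitoferrins overlapped between genotypes.

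Among carriers of other amino acids, 4 of 5 were tested, with 2 estimates below 0 and 2 above, and none passed. The ornithine carrier Slc25a15 had 227, 286, 221 and 274 in wild type and 264, 263, 284 and 274 in the knockout, where all knockout libraries lay inside the wild-type range (log2 fold change 0.11, standard error 0.092). Slc25a44, a carrier of branched-chain amino acids, had 394, 391, 355 and 353 in wild type and 343, 338, 343 and 416 in the knockout. Knockout replicate 4 was the highest of the 8 libraries and the other three were below all wild-type libraries. The glycine carrier Slc25a38 had 289.5 ± 9.82 and 279 ± 39.7, and Slc25a29, a carrier of basic amino acids, had 236 ± 25.5 and 239.5 ± 16.3. Slc25a29 lies 0.163 kb from Slc25a47, on the opposite strand.

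The 3 members that resemble uncoupling proteins in sequence, Slc25a14, Slc25a27 and Slc25a30, all had estimates below 0 (median −0.18), and none passed. Slc25a14 had 34.3, 34.3, 30.6 and 24.9 normalized counts in wild type and 19.8, 21.6, 34.7 and 28.2 in the knockout (log2 fold change −0.26, standard error 0.23). Slc25a27 had 110.3 ± 5.49 and 97.4 ± 9.99, and Slc25a30 had 105 ± 12.6 and 94.7 ± 10.4. The groups overlapped in all 3.

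Of the 9 members with an uncertain or unassigned substrate, 6 were tested, and besides Slc25a34 none had an unadjusted p under 0.05. Slc25a35, the paralog of Slc25a34, had 42.7, 43.2, 34.6 and 52.0 in wild type and 45.4, 48.6, 52.1 and 54.1 in the knockout (log2 fold change 0.22, standard error 0.17). Wild-type replicate 4 lay among the knockout libraries, and the other three were below them. Slc25a46, which sits in the outer membrane and acts in mitochondrial shape, had 1313, 1371, 1281 and 1246 in wild type and 1354, 1349, 1303 and 1311 in the knockout (log2 fold change 0.030, interval −0.069 to 0.13). Slc25a45 had 84.6 ± 14.7 and 87.8 ± 7.02, Slc25a47, known from liver, had 43.6 ± 8.68 and 43.6 ± 8.43, and Slc25a53 had 40.8 ± 6.30 and 34.7 ± 1.78.

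Members near the filter were Slc25a31, Slc25a18 and Slc25a14 on the inner side, with values given above. Just outside were Slc25a2, an ornithine carrier, at 7.83 ± 2.37 in wild type and 6.39 ± 2.64 in the knockout, Slc25a43 at 5.98 ± 3.11 and 2.39 ± 2.31, and Slc25a21 at 1.56 ± 0.637 and 0.413 ± 0.825. Slc25a41, Slc25a48 and Slc25a54 were further out, Slc25a48 and Slc25a54 with a value above 0 in 1 library each. No fold change is given for these 6 genes.

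Paralogous carriers mostly stood at uneven levels, and the ratios of most pairs overlapped between genotypes. The ratios are per kb of exon, and their size, in some pairs also their direction, depends on the exon lengths used. Slc25a4 exceeded Slc25a5 by 10.2 ± 0.870 times per kb in wild type and by 9.29 ± 0.563 times in the knockout. Per kb, Slc25a12 stood at 0.595 ± 0.0542 of Slc25a13 in wild type and 0.574 ± 0.00458 in the knockout. In normalized counts Slc25a12 was the higher, at a mean of 3464 over the 8 libraries against 3073. Its exon length was 7342 bases against 3798, while the coding sequences had 2031 and 2028 bases. Slc25a22 exceeded Slc25a18 by 5.43 ± 0.442 and 6.18 ± 1.45 times, and Slc25a39 exceeded Slc25a40 by 24.3 ± 2.09 and 21.8 ± 0.643 times. These 4 ratios overlapped between genotypes. Slc25a23 exceeded Slc25a24 by 1.59 ± 0.107 times in wild type and 1.52 ± 0.0858 times in the knockout. It exceeded Slc25a25 by 3.07 ± 0.815 and 2.18 ± 0.545 times, and these ratios overlapped too. The mitoferrins were nearly even per kb, with Slc25a37 at 0.898 ± 0.159 of Slc25a28 in wild type and 0.889 ± 0.116 in the knockout. Slc25a37 was the higher in normalized counts, at a mean of 367 against 257. Slc25a36 over Slc25a33 was 1.34 ± 0.308 in wild type and 1.74 ± 0.306 in the knockout, and knockout replicate 4, at 1.29, lay in the wild-type range. Their mean normalized counts were 1602 and 212, over exon lengths of 9594 and 1887 bases. Slc25a34 over Slc25a35 was 91.8 ± 20.7 in wild type, at 76.7 to 122, and 64.9 ± 5.83 in the knockout, at 57.2 to 70.8. Those ranges did not overlap, and of its members only Slc25a34 had separate groups by itself. The coding sequences of Slc25a34 and Slc25a35 were 64.9% identical.

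Read sharing with other genes could touch some of these counts. Exons of 13 of the 41 members overlap exons of another gene, 11 on the opposite strand and 2 on the same strand, among them Slc25a26 with Lrig1 at 738 to 930 normalized counts. Slc25a34, Slc25a4, Slc25a5, Slc25a22 and Slc25a42 had no such overlap, and the antisense gene at Slc25a33, Gm13068, held 3.25 to 13.0.

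The lean to lower values was seen in each knockout library, but all 4 are set against the same wild-type mean, so their agreement is partly built in. Against the wild-type mean, the median log2 difference of the 41 members was −0.032, −0.040, −0.038 and −0.025 in knockout replicates 1 to 4, and 0.0054, 0.017, 0.0099 and 0.0061 in wild-type replicates 1 to 4, which enter the mean they are set against. The same median over all genes lay between −0.00075 and 0.0096 in every library. Wild-type replicate 2 held the highest value of the 8 libraries for 10 members (24.4%, against 13.4% of all genes), and knockout replicate 1 the lowest for 8 (19.5%, against 12.5%). Wild-type libraries varied more than knockout libraries, with a median coefficient of variation of 10.8% against 7.47% for the members and 9.18% against 8.88% for all genes. The coefficient was larger in wild type for 26 of 41 members (63.4%), against 52.6% of all genes.

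The 8 markers of ventricular cardiomyocytes summed to 1176493 to 1283525 normalized counts in wild type and 1084779 to 1248166 in the knockout. The atrial markers Myl7 and Sln were at most 7.58 and 3.30, and Myl4 was at 21.3 to 39.2 in wild type and 25.5 to 47.3 in the knockout. The atrial list summed to 353.9 to 669 in wild type and 3630 to 3846 in the knockout, mostly Nppa in both. Nppa, at 420 ± 140 and 3713 ± 83.3, was the 1 gene of any marker list that passed the limma test. Its gene (chr4:148000722-148002079) lies near Nppb (chr4:147985788-147987205). Of the ventricular markers, 8 of 8 had estimates below 0 with a median of −0.041, but 3 of 8 with a median of 0.012 under quantile normalization. Smooth muscle markers (4 of 4 above 0, median 0.24) summed to 3044 to 4515 in wild type and 4052 to 5353 in the knockout. Macrophage markers (5 of 5 above 0, median 0.16) summed to 2428 to 3160 and 2831 to 3145. Adipocyte markers summed to 18.3 to 98.5 in wild type and 9.2 to 28.9 in the knockout, with Adipoq at 5.32 to 19.5 and 0.772 to 4.09, and skeletal muscle markers to 7327 to 7597 and 6232 to 8437. Myh1 (5736 ± 143 and 5731 ± 719) and Myh4 (1642 ± 130 and 1527 ± 191) made up most of the skeletal muscle sum. Means of Myh2, Actn3 and Tnnt3 were 34.9, 21.3 and 6.28 in wild type and 30.0, 17.0 and 1.90 in the knockout. Fibroblast, endothelial and erythroid markers overlapped between genotypes in their sums, with medians of −0.020, 0.028 and −0.083, and no marker in any list was at 0 throughout. The part of these cell types in the carrier values was not tested.

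Genes that work with the carriers were counted in 8 lists, and none of the genes in them passed the limma test. Carriers of the family under other names gave 3 of 4 tested below 0, with a median of −0.041. Ucp3, the uncoupling protein of muscle, had 249, 438, 575 and 423 in wild type and 207, 272, 254 and 193 in the knockout, where wild-type replicate 1 lay among the knockout libraries and the other three were above them. Its log2 fold change was −0.81 (standard error 0.26, limma adjusted p = 0.745). Ucp2 had 356 ± 41.9 and 344 ± 39.3 (log2 fold change −0.048), Mtch1 had 1434 ± 53.3 and 1401 ± 74.5, and Ucp1, the thermogenic protein of brown fat, was above 0 in 1 library.

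The carnitine system list was below 0 in 6 of 6 genes with a median of −0.13. The same 6 were below 0 under TMM factors, quantile normalization, edgeR and DESeq2. Cpt2, the inner-membrane carnitine palmitoyltransferase, had 2848, 3060.1, 3059 and 2989 in wild type and 2320.2, 2589.7, 2687 and 2763 in the knockout, with no overlap, a log2 fold change of −0.21 (standard error 0.053) and a limma adjusted p of 0.495. Cpt1a, an outer-membrane form of the enzyme, had 782, 918, 716 and 779.7 in wild type and 685, 633, 761 and 668 in the knockout, overlapping at one end, with a log2 fold change of −0.22 (standard error 0.075, limma adjusted p = 0.707). At an unadjusted limma p under 0.05, 3 of the 6 were lower, against 3.29% of all genes.

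Among 8 regulators of mitochondrial biogenesis, 4 were below 0 and 4 above. Ppargc1a, a coactivator that drives many mitochondrial genes, had 3260.0, 2604, 2580.1 and 3049 in wild type and 2045, 1868, 1779 and 2509.6 in the knockout, with no overlap. Its log2 fold change was −0.49 (standard error 0.12), with an adjusted p of 0.661 by limma and 0.00359 by DESeq2. Its relative Ppargc1b had 837 ± 34.0 and 762 ± 80.6 (log2 fold change −0.14).

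The route by which carriers enter the membrane was above 0 in 9 of 15 genes tested, with a median of 0.056. Timm22, the channel that inserts carriers, had 335, 345, 257 and 327 in wild type and 345, 415, 340.3 and 362 in the knockout, overlapping, with a log2 fold change of 0.21 (standard error 0.096, limma adjusted p = 0.771). Tomm70a, the receptor that carriers bind on the outer membrane, had 1789.7 ± 55.8 and 1908 ± 78.9 (log2 fold change 0.092). The VDAC channels of the outer membrane were above 0 in 2 of 3 (log2 fold change 0.057 for Vdac2 and 0.014 for Vdac3), and in 3 of 3 under quantile normalization. Transporters of the inner membrane from other families gave 11 of 20 below 0 (10 of 20 under quantile normalization) with a median of −0.0062, and the smallest p belonged to the sideroflexins Sfxn2 (log2 fold change −0.42) and Sfxn3 (log2 fold change 0.19). Enzymes of the malate-aspartate and glycerophosphate shuttles gave 4 of 6 below 0, or 3 of 6 under quantile normalization (log2 fold change −0.053 for Got2 and 0.070 for Gpd2). ATP synthase subunits and creatine kinases gave 8 of 9 below 0 with a median of −0.015 (log2 fold change −0.038 for Atp5b and −0.049 for Atp5e), but 1 of 9 with a median of 0.033 under quantile normalization.

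**Figure D4:**
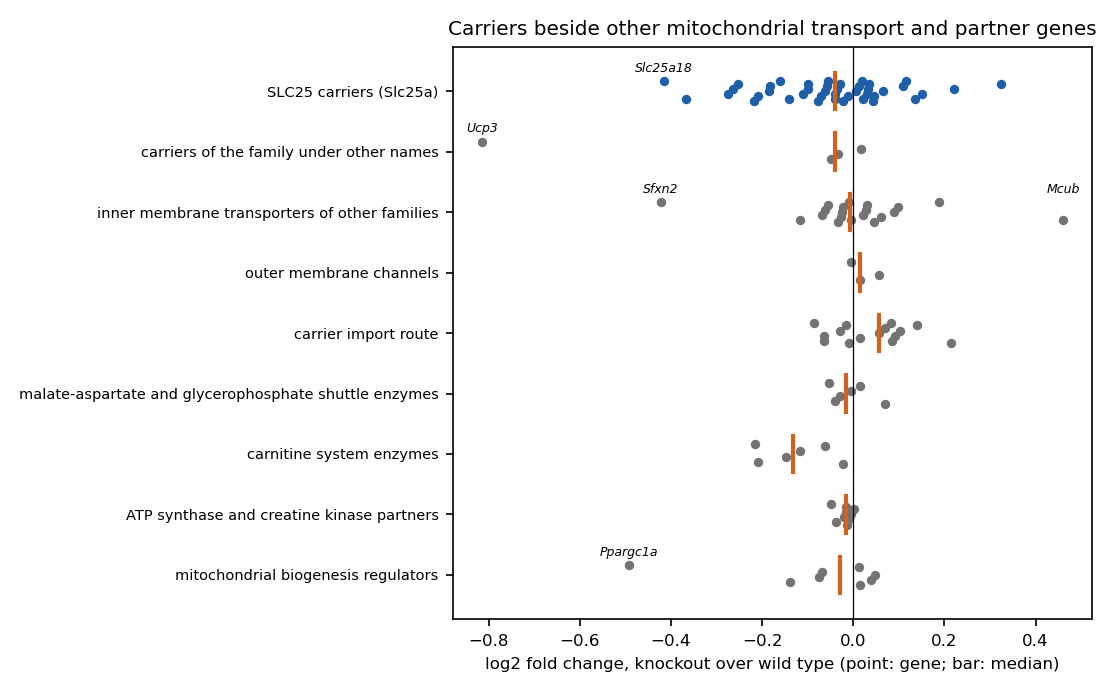
The log2 fold change (knockout over wild type, x axis) of each gene tested among the SLC25 carriers and 8 lists of related genes, with a bar for the median of each. The carriers spread over −0.42 to 0.32 around a median of −0.039, and the outlying points of the other lists are Ucp3, Sfxn2, Mcub and Ppargc1a.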

How the data were processed

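Total RNA (900 ng) from the left ventricle of 4 wild-type and 4 Nppb knockout mice went into stranded libraries read as 125 bp pairs, per the labels' protocols. The authors deposited a signal per gene and library, its normalized read count, and a table of their comparison with log2 fold changes (wild type over knockout), p-values and geometric means. STAR, DESeq2 and mm10 are named without versions or roles in the submitters' processing notes, and neither the read counter, its strand setting nor the annotation was stated. The members and gene lists were chosen with earlier results of these data known.

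Values were whole multiples of 1 read within 0.01 reads for 100% of values, which recovered the reads and size factors. limma 3.58.1 (R 4.3.3, trend, robust) was fitted on log2(value + 1) for the 16590 genes with a mean of at least 10. The pseudocount understates changes of low genes. edgeR 4.0.16 and DESeq2 1.42.0 on the recovered reads, pseudocounts of 0.5 and 5, no filter and a mean of at least 50, TMM and quantile scaling, no robust moderation, sample weights, a replicate block and each library left out were the alternatives. The fits were tested on simulated data. GENCODE M21 gave coordinates and exon lengths for 40254 of 41128 gene IDs, and Biopython 1.88 aligned coding sequences. No replicates were copies of each other (smallest chi-square per degree of freedom 4.84).

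Values in every library are given for the 10 members highest per kb, the 6 with the smallest p in each direction, those without overlap and paralog pairs. They are also given for those just inside the filter and those with 1 library far from the rest. Members just outside the filter are given as mean and SD. Other genes named are Nppb, Ucp2, Ucp3 and the 2 with the smallest p of each list. Mcub, Ucp1, Adipoq, Myl4, Myl7, Sln, the skeletal muscle markers and overlapping genes were named after their values were seen. The values of 1 member are not reported here, and the counts over the family include it.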

Additional observations from a re-analysis of the deposited data

Results flagged for a closer look

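In 4 of 82 groups of 4 libraries (41 members in 2 genotypes), 1 library lay far from the other 3 of its group by Dixon's criterion at the 95% level. Chance flags about 1 in 20 groups, so the number is near that share. Slc25a33 stood at 232 normalized counts in knockout replicate 4, while the other knockout libraries lay at 168 to 173. Slc25a44 stood at 416 in the same library, with the others at 338 to 343. Slc25a4 stood at 59577 in knockout replicate 3, with the others at 61900.0 to 62215. Slc25a39 stood at 1278 in knockout replicate 1, with the others at 1477 to 1502. Without knockout replicate 4 the log2 fold change of Slc25a33 was −0.48 (limma adjusted p = 0.186, range over the alternatives 0.186 to 0.957) in place of −0.37.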

How the results depend on the processing

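The count of carriers past the adjusted threshold stayed at 0 in every alternative except DESeq2, which gave 1 (Slc25a34), and the cause was not tested. The unadjusted count of 5, against 6.26% of all genes, was 8 of 47 with no low-value filter, against 5.59% of 28402 genes. It was 3 to 6 when a library was left out, the 3 coming without wild-type replicate 4 (5.09% of all genes) or without knockout replicate 4 (6.40%). The median of −0.039 was −0.056 with no filter and lay between −0.051 and −0.032 when a library was left out. The count of members without overlap, 1, was 1 to 5 when a library was left out, while the share of all tested genes without overlap went from 3.76% to between 6.10% and 8.26%. Genes of the related lists past the threshold numbered 1 with DESeq2 and 1 with the replicate block, in both cases Ppargc1a (adjusted p = 0.00359 and 0.0192), against 0 otherwise. Deviations of libraries with the same number correlated at −0.069 to 0.026, so the numbers share nothing visible, and the block gave 6 carriers at an unadjusted p under 0.05 in place of 5.

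Signs turned for small estimates. Slc25a31 was −0.035 with edgeR and −0.034 with DESeq2, and Atp5b was 0.043 with quantile normalization. With a library left out, the lowest and highest values were −0.0082 and 0.038 for Slc25a4, −0.040 and 0.038 for Slc25a12, −0.033 and 0.079 for Slc25a13, −0.31 and 0.24 for Slc25a31, −0.045 and 0.085 for Slc25a36, −0.065 and 0.015 for Slc25a39, and −0.0048 and 0.029 for Vdac3. The adjusted p of Slc25a34 ranged from 0.0318 to 0.811. The widest intervals were those of Slc25a31 and Slc25a18, and how far depth rather than spread between animals sets them was not tested.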
